A study of Drosophila melanogaster with 3 samples.

Results

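The 10 Trithorax group genes trx, ash1, trr, Utx, brm, mor, osa, kis, Trl and fs(1)h were chosen by symbol, out of 13945 protein-coding genes on 6 chromosome arms, and all 10 symbols were found in the Ensembl annotation. Jarid2 had been mapped by ChIP-seq, which pulls down the DNA that a protein is bound to and sequences it, in Drosophila melanogaster embryos, whole and of mixed sex, collected from 0 to 24 h. All embryos came from a transgenic line that carries Jarid2 with a C-terminal GFP tag, and the chromatin was recovered with an antibody to GFP. There was a single group of 3 biological replicates, with no group of other genotype or age, so the values below compare genes, sites and replicates and not conditions. Whole embryos mix all tissues and stages of the collection, and the cells that a peak came from cannot be told apart. No precipitation from embryos without the tag was analysed here.

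Trithorax group proteins keep developmental genes active and were found in the fly as antagonists of the Polycomb group, whose PRC2 complex methylates histone H3 and is bound by Jarid2. Some members modify histones (trx, ash1, trr and Utx), some encode subunits of the SWI/SNF chromatin remodelling complex (brm, mor and osa) or another remodeller (kis), and others encode chromatin-binding factors (Trl and fs(1)h). The values here concern peaks at the genes of these proteins, not the binding of the proteins themselves.

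Of the 10 members, 6 had a peak of the reproducible list at a promoter, namely brm, Trl, kis, trx, mor and osa, and 4 did not, namely ash1, Utx, trr and fs(1)h. A promoter peak is one whose summit, its point of highest signal, lies within 1 kb of an annotated start. The reproducible list holds 5464 peaks and was cut by an irreproducible discovery rate threshold. These were the 5464 strongest peaks of the 3 replicates pooled, so a listed peak need not be strong in every replicate. Over all protein-coding genes 25.5% had such a peak. The members are long, with spans from 4780 bp (mor) to 40089 bp (kis) and a median of 12954 bp, against a median of 2166 bp over all protein-coding genes. Among the 3610 genes at least as long as mor, 52.9% had a promoter peak, so the 6 of 10 lay near the share of genes of such length. In each replicate taken alone, with its 5464 strongest peaks, 7 of the 10 members had a promoter peak, against 27.2%, 24.5% and 26.5% of all genes in replicates 1, 2 and 3. The seventh was fs(1)h in every case.

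**Figure D1:**
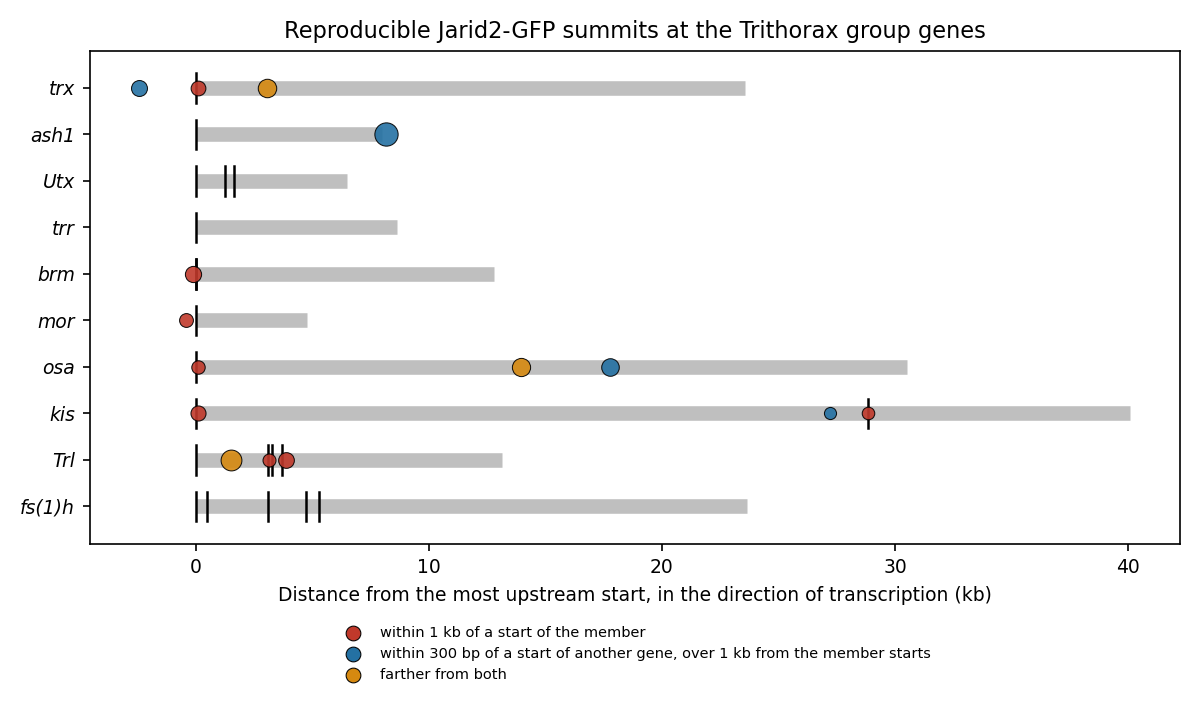
Position of the 15 reproducible summits along the 10 members; the x axis is the distance in kb from the most upstream start in the direction of transcription, grey bars are gene spans, black ticks are annotated starts and larger circles are stronger peaks. The largest circle is the site of rank 35 beyond the 3' end of ash1, 85 bp upstream of the CG14100 start. In trx, osa and Trl an internal site is larger than the one at the start.

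The sites on which the results turn are shown here on the minus strand of the dm6 assembly, the coding strand of all 10 members, read from the Release 6 reference. Untranslated regions were left out, so the sites at brm and ash1 are shown as the whole stretch between neighbouring transcripts, and the internal sites of trx, Trl and osa as 201 bases centred on the summit. Capitals mark matches, on either strand, to 8 short motifs: GAGAG, the element of the GAGA factor that Trl encodes; GCCAT, the core of the Pho site; TATCGATA, the DRE; CGATA, a BEAF-32 element that the DRE contains; GTCACAC, the core of a promoter motif; CACGTG, an E-box; GGGCG, a GC-rich element; and TGAGTG, a Zeste-like site.
ash1 3' flank up to the CG14100 start, chr3L:19590525-19590772, minus strand: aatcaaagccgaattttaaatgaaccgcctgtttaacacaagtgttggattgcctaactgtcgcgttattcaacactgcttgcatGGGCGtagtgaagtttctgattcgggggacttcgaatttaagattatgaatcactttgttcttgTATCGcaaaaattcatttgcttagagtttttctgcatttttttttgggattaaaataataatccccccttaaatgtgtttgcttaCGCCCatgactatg
Trl intron, chr3L:14759424-14759624, minus strand: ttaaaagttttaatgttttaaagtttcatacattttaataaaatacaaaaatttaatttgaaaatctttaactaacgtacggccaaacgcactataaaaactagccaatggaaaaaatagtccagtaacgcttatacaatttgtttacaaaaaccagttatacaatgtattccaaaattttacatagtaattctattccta
trx intron, chr3R:14283764-14283964, minus strand: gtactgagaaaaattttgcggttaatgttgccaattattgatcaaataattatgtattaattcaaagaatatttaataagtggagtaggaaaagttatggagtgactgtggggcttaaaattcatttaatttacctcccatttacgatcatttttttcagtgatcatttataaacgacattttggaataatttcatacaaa
osa intron, site nearer the start, chr3R:17704299-17704499, minus strand: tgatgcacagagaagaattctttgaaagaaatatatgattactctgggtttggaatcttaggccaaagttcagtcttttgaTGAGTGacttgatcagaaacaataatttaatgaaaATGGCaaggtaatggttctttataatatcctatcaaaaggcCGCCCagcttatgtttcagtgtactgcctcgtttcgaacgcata
osa intron, site farther from the start, chr3R:17700500-17700700, minus strand: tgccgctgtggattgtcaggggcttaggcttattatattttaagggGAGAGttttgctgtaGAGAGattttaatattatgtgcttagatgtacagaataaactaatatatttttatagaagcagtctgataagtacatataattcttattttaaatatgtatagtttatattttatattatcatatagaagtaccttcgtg
brm to Arl1 interval, chr3L:15982870-15983134, minus strand: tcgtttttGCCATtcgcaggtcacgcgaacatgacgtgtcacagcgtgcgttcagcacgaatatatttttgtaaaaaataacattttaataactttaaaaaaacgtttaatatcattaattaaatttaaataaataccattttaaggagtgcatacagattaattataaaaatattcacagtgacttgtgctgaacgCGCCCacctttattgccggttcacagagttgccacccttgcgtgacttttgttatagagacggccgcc
The upstream 100 bases of 4 starts with a summit within 1 kb are added, each with motif matches. Not printed are those of other starts with such a summit. Among these are the kis starts (GCCAT and CGATA at the upstream one, GCCAT at the downstream one) and the second Trl start (no match). The Trl start between the second and the most downstream one is also among them. The mor summit lies 409 bp upstream, beyond the printed bases and nearer to Hel89B.
Trl, most downstream start, chr3L:14757337-14757436, minus strand: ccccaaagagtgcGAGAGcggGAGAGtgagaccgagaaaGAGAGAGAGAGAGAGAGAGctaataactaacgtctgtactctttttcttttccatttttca
trx, chr3R:14286904-14287003, minus strand: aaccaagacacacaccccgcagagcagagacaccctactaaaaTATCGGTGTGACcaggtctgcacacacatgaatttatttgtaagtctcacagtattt
osa, chr3R:17718351-17718450, minus strand: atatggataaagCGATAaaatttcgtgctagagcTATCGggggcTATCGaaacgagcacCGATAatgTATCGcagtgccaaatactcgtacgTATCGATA
mor, chr3R:15972914-15973013, minus strand: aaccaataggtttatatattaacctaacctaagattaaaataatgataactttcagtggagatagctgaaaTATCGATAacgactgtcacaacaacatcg

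Among the histone-modifying members, trx, which encodes a histone H3 methyltransferase of the MLL family (FBgn0003862, chromosome 3R, 14263358 to 14286903), had a promoter summit 81 bp downstream of its only annotated start, in its own 5' UTR. That peak ranked 1533 by signal in the reproducible list, and 1501, 1172 and 1728 in replicates 1, 2 and 3 (mean 1467 ± 280, SD, n = 3). A stronger site lay in an intron 3039 bp downstream of the start, at rank 365 (462, 455 and 239 in the replicates, mean 385 ± 127, SD, n = 3). The intronic site ranked above the promoter site in all 3 replicates, and the 2 sets of ranks did not overlap. The other trx site, at rank 991 (742, 867 and 1438), lay 2430 bp upstream of trx but 59 bp downstream of a start of its neighbour red, in the 5' UTR of that gene. Replicate summits lay within 17 bp of the reproducible summit at the intronic site and up to 114 bp away at the promoter.

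The strongest peak near any member lay near ash1, which encodes another histone methyltransferase (FBgn0005386, chromosome 3L, 19590773 to 19598755). It ranked 35 of 5464, with a signal of 2208 on the authors' scale for this list, and 24, 90 and 9 in replicates 1, 2 and 3 (mean 41 ± 43.1, SD, n = 3). The site was not at the promoter: its summit lay 8146 bp downstream of the ash1 start, beyond the 3' end of the gene, and 85 bp upstream of the start of CG14100. The replicate summits lay within 11 bp of it. At the ash1 start itself, which faces the start of Taf6, a TFIID subunit gene, 333 bp away, the reproducible and pooled lists had no summit. Replicate 1 had one 85 bp downstream of the start, at rank 7295 of its 30000, and a weaker one 122 bp upstream at rank 22726. Replicate 3 had one 103 bp upstream at rank 10363, and replicate 2 had none.

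For Utx, which encodes the demethylase that removes the PRC2 mark (FBgn0260749, chromosome 2L, 10272325 to 10278811), no summit was found in the span or in 10 kb on either side. This held for the reproducible list, the pooled list of 30000 and all 3 replicate lists of 30000, although Utx has 3 annotated starts. Of all protein-coding genes, 3.82% likewise had no summit of any replicate in that window. The gene trr, which encodes the MLL3/4-like methyltransferase that works with Utx (FBgn0023518, chromosome X, 1881313 to 1889950), had no summit within 1 kb of its start in any list. Its start faces that of mRpL16, a mitochondrial ribosomal protein gene, 306 bp away.

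Of the SWI/SNF members, brm, the ATPase subunit gene (FBgn0000212, chromosome 3L, 15970082 to 15982869), had the strongest promoter peak of all members, at rank 910. Its ranks in replicates 1, 2 and 3 were 893, 1307 and 483 (mean 894 ± 412, SD, n = 3). The summit was intergenic, 102 bp upstream of the nearer brm start and 164 bp upstream of the start of Arl1, a small GTPase gene that is transcribed the other way. The scaffold subunit gene mor (FBgn0002783, chromosome 3R, 15968134 to 15972913) had a summit 409 bp upstream, at rank 2076, with 2106, 2191 and 2128 in the replicates (mean 2142 ± 44.1, SD, n = 3). That summit lay 24 bp downstream of a start of the divergent helicase gene Hel89B, in its 5' UTR, and was thus closer to Hel89B than to mor. With every summit assigned to the closest start alone, mor lost its promoter peak and 5 members kept one, against 20.5% of all genes.

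The gene osa, which encodes the ARID-domain subunit of the complex (FBgn0261885, chromosome 3R, 17687818 to 17718350), had its promoter summit 108 bp downstream of its only start, in the 5' UTR, at rank 2378. In replicates 1, 2 and 3 it ranked 1606, 3623 and 3219 (mean 2816 ± 1067, SD, n = 3), the widest spread but one among the member summits. Deep in its introns were 2 stronger sites. The first lay 13951 bp downstream of the start at rank 406 (455, 501 and 326 in the replicates), in an exon of the nested antisense transcript lncRNA:CR46035, 704 bp downstream of that transcript's start. The second lay 17750 bp downstream at rank 526 (716, 458 and 446), 141 bp upstream of the start of another antisense transcript, lncRNA:CR46036. Both ranked above the promoter site in all 3 replicates without overlap.

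The kis gene, which encodes a CHD-family remodeller (FBgn0266557, chromosome 2L, 210735 to 250823), was occupied at both of its annotated starts. At the upstream start the summit lay 81 bp downstream, in an intron, at rank 1358 (1300, 1206 and 2099 in the replicates, mean 1535 ± 491, SD, n = 3). At the downstream start it lay 9 bp upstream, at rank 3112 (3120, 2538 and 4355, mean 3338 ± 928, SD, n = 3). The upstream start thus carried the higher-ranked peak in every replicate. Another site, at rank 3514 (3318, 3840 and 4087), lay 92 bp downstream of the start of the nested lncRNA:CR44222, which runs antisense to kis, and it was the weakest of the member summits.

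Among the chromatin-binding factors, Trl, the gene of GAGA factor (FBgn0013263, chromosome 3L, 14747929 to 14761049), had 3 reproducible summits, 2 of them at starts. The stronger promoter summit lay 154 bp downstream of the most downstream start, at rank 1079 (1797, 950 and 910 in the replicates, mean 1219 ± 501, SD, n = 3). The other lay 44 bp downstream of a second start, which CG42507 shares, at rank 2704 (1968, 4169 and 3445, mean 3194 ± 1122, SD, n = 3). Both were in a 5' UTR of Trl that is also annotated for CG42507. The strongest Trl site, at rank 124 with a signal of 1603, stood in an intron, 1525 bp downstream of the most upstream start and 1562 bp upstream of the second. It ranked 183, 153 and 36 in the replicates (mean 124 ± 77.7, SD, n = 3). The most upstream start had no reproducible summit within 1 kb.

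**Figure D2:**
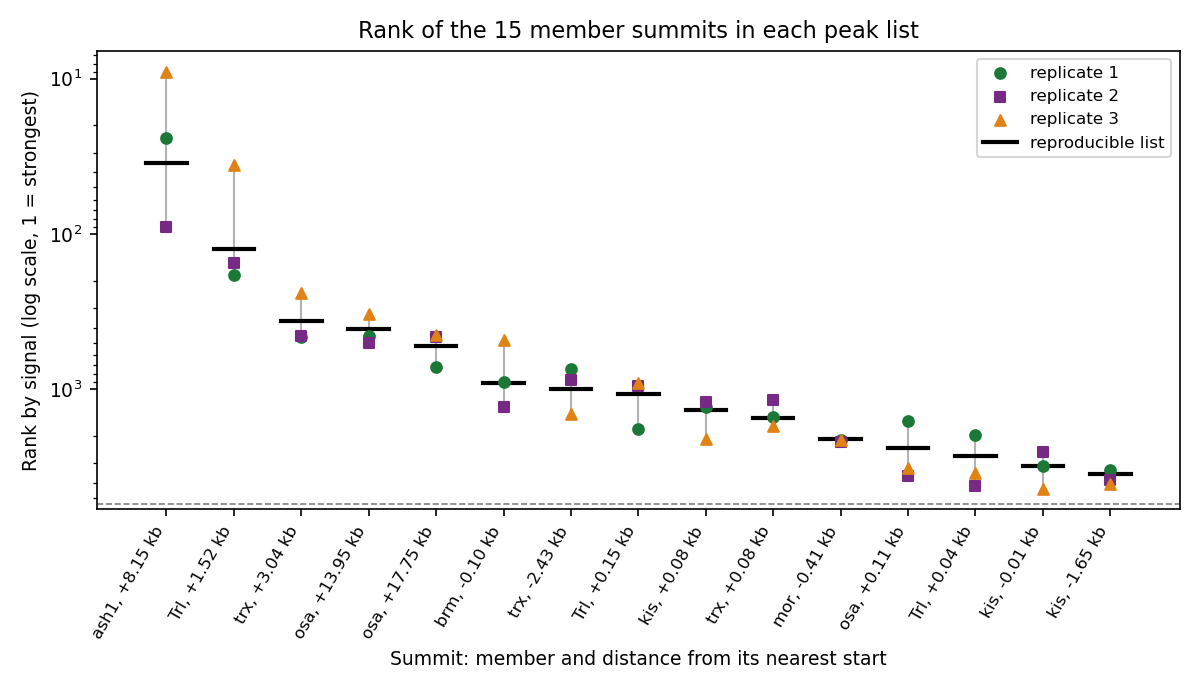
Rank by signal of the 15 member summits, ordered by rank in the reproducible list (black bars), with the strongest matching peak within 200 bp in each replicate (symbols); the y axis is logarithmic with the strongest peaks at the top, and the dashed line is rank 5464. All symbols lie above the line, and the site beyond the 3' end of ash1 and the intronic sites of Trl, trx and osa take the first 5 places.

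All 15 member summits were matched within 200 bp by a peak among the 5464 strongest of each of the 3 replicates. Over the reproducible list 68.2% of peaks were, and 93.3% of the 3514 peaks at least as strong as the weakest member summit. The list was made from the same replicates, so this support is not independent. The same holds for the order of the trx, osa and kis sites in the replicates. Of the 6 members with a promoter peak, trx, osa and Trl had their strongest nearby summit away from any of their starts. Among all genes with a promoter peak the share was 34.0%, and 28.9% among those at least as long as mor. Within the spans and 10 kb on each side lay 15 summits, for 7 of the 10 members, where 62.5% of all protein-coding genes and 77.6% of those at least as long as mor had 1 or more. That is 4.04 summits per 100 kb of the members' windows, close to the 4.08 per 100 kb of the 6 chromosome arms. The median over all protein-coding genes, measured in the same windows, was higher at 4.46 per 100 kb. When neighbouring starts were merged, 7 of the 19 start clusters of the members had a summit within 300 bp, against 18.9% of all start clusters. The occupied clusters were 1 each at trx, brm and osa, and 2 each at kis and Trl, and those of Utx, trr, ash1, mor and fs(1)h were empty.

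The number of annotated starts moved with the share of genes that had a promoter peak, from 18.5% of the 10246 genes with 1 start to 70.5% of the 190 genes with 5 or more. Of the 5 members with a single start, trx, mor and osa had a peak and ash1 and trr had none. Utx with 3 starts and fs(1)h with 5 were among the members without one, although 55.4% and 70.5% of genes in their classes had a peak. The 2 members on the X chromosome, trr and fs(1)h, had none, where 23.5% of X-linked genes did.

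**Figure D3:**
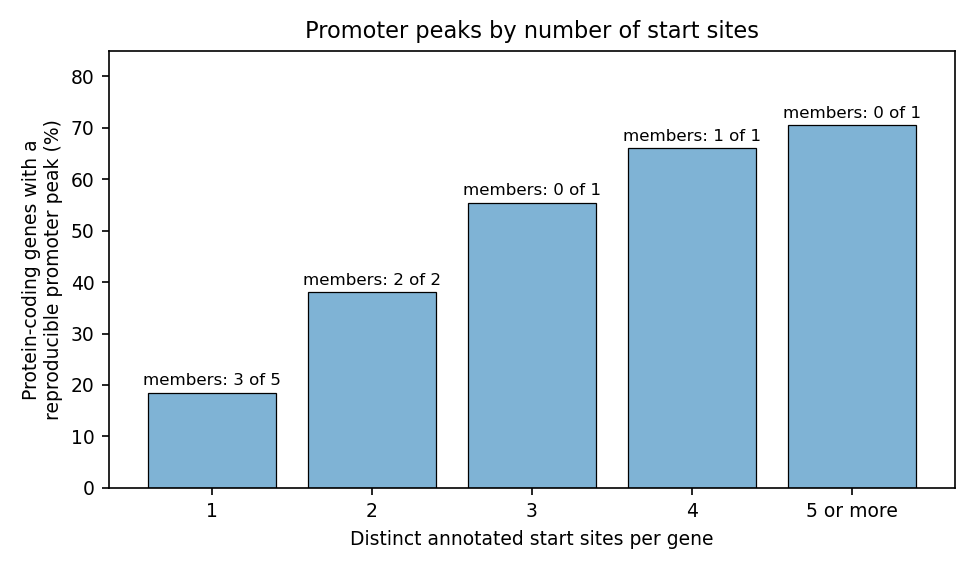
Percentage of protein-coding genes with a reproducible promoter peak (y axis) by number of distinct annotated starts (x axis), with the members of each class and how many of them had a peak written above the bars. The share rises from 18.5% to 70.5% across the classes.

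At fs(1)h, which encodes a BET bromodomain protein that binds acetylated histones (FBgn0004656, chromosome X, 8037808 to 8061436), the replicates placed their strongest promoter peak at different starts. Replicate 1 had it 302 bp upstream of the most upstream start at rank 3625, which is 93 bp downstream of the start of the divergent integrin gene mys. Replicate 2 had it 216 bp upstream of a start within the gene at rank 5192, and replicate 3 had it 790 bp upstream of another internal start at rank 2561. No single site was among the 5464 strongest peaks of all 3. The site of replicate 2 was seen at rank 7936 in replicate 1, 19405 in replicate 3 and 6599 in the pooled list, and so outside the 5464 peaks of the reproducible list. The site of replicate 3 had counterparts at rank 3917 in replicate 1 and 12091 in replicate 2. Near the site of replicate 1, replicate 3 had a summit 149 bp upstream of the most upstream start, at rank 6184, and replicate 2 had none. Genes with a promoter peak in every replicate alone and none in the reproducible list were few, 18 of 13945 (0.129%), and fs(1)h was one of them.

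**Figure D4:**
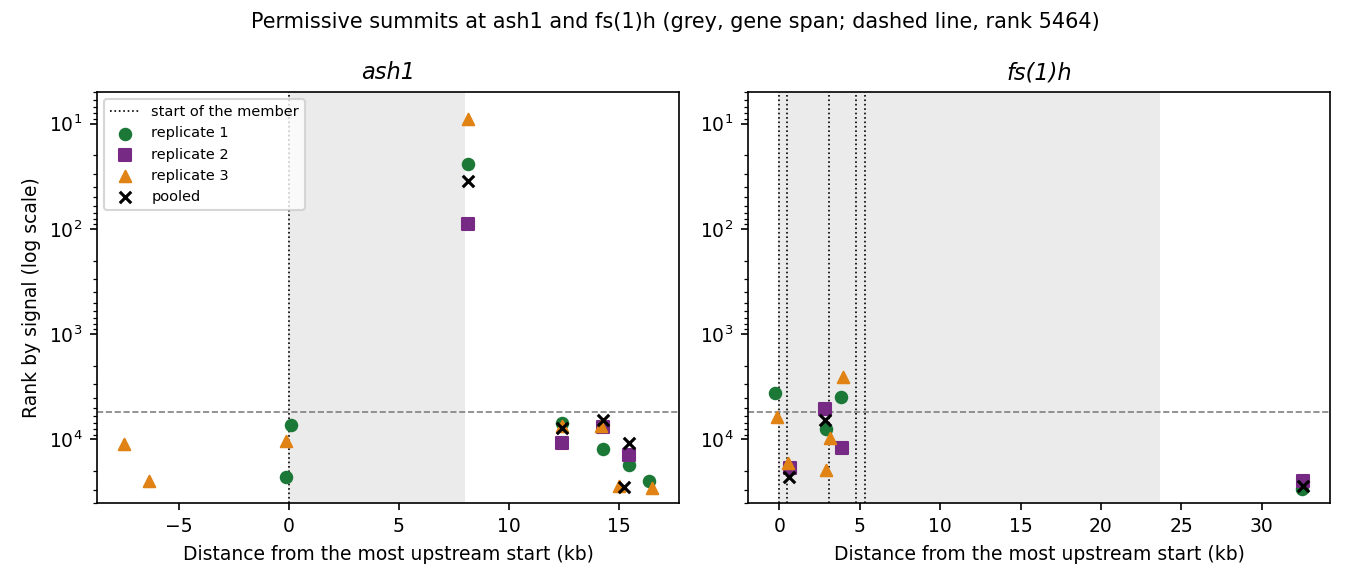
Summits of the permissive lists of 30000 peaks at ash1 and fs(1)h, with distance from the most upstream start in kb on the x axis and rank by signal on a logarithmic y axis, strongest at the top; symbols are the 3 replicates and the pooled list. At ash1 all 4 lists meet at the site beyond the 3' end, while at fs(1)h no site has the symbols of all 3 replicates above the dashed line of rank 5464.

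The bases around the member summits ranged from 23.9% GC at the Trl intronic site to 50.7% GC at the osa promoter, within 100 bp of the summit. The 5 strongest member summits, at ash1, Trl, trx and the 2 osa introns, had 36.3%, 23.9%, 27.4%, 36.3% and 28.4% GC, all below the median of 43.3% over the reproducible list. The 526 summits at least as strong as the weakest of these 5 had a median of 47.8% GC, so these 5 also lay below the middle of peaks of their strength. Summits over 1 kb from any start had a median of 37.8% GC and those within 1 kb 45.3%, and the Trl intronic site was among the 0.933% of summits with the lowest GC content. At the promoters, kis (38.3% upstream, 48.3% downstream), trx (37.8%) and brm (31.3%) stood beside mor (45.8%) and Trl (46.8% and 49.8%). The part of base composition in the ranks was not tested.

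**Figure D5:**
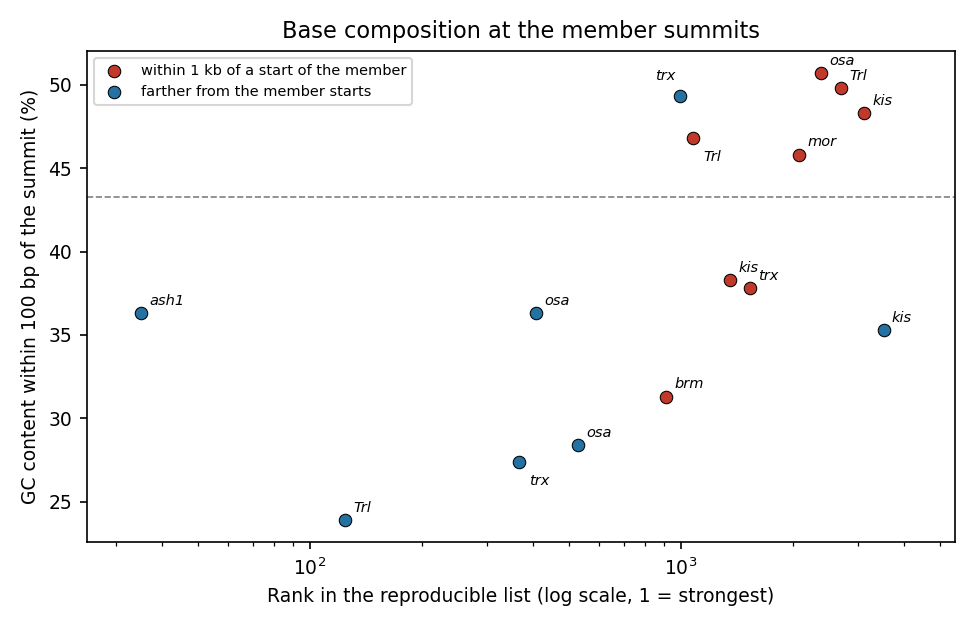
GC content within 100 bp of each member summit (y axis, %) against its rank in the reproducible list (logarithmic x axis, strongest at the left), coloured by distance from the member's starts; the dashed line is the median of all reproducible summits, 43.3%. The 5 strongest member summits lie below the line, and the promoter summits of osa, Trl and mor and the downstream one of kis lie above it.

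Motif matches were counted at all member summits, including those whose bases are not printed above, and are a description only. Within 100 bp, GAGAG occurred at 1 of the 15 member summits, the osa site of rank 526, against 31.4% of all reproducible summits. In windows of 250 bp on each side it occurred at 12 of 15, against 64.8% of all. A run of GAGAG repeats stood in the 100 bases upstream of the most downstream Trl start, whose summit lies farther than 100 bp from it. GAGAG also stood upstream of the 2 most downstream starts of fs(1)h, and so at 3 of the 21 member starts, against 15.2% of all 19607 starts of protein-coding genes. The GCCAT core was found at 4 member summits (27.7% of all), CGATA at 5 (26.1%), GGGCG at 5 (20.9%), TGAGTG at 2 (11.7%) and GTCACAC at 1 (3.84%), and TATCGATA and CACGTG at 0 (1.54% and 2.42%). The DRE, TATCGATA, stood upstream of the starts of osa and mor, and of 5.12% of all starts, and GTCACAC upstream of those of trx and ash1, and of 3.16% of all. None of the 8 motifs occurred within 100 bp of 5 member summits, the intronic one of trx, the upstream one of kis and all 3 of Trl.

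For comparison, a list of 35 other Trithorax group genes and genes of partner proteins was examined, of which 33 symbols were matched. They come from the members' own and from other remodelling and methyltransferase complexes, and from other factors. A reproducible promoter peak was found at 7 of the 33 (21.2%), against 25.5% of all genes, and not at the other 26. Among the strongest 2732 peaks the count was 2 of 33, against 16.4% of all genes. With every summit assigned to the closest start alone it was 5, against 20.5%. When the peaks had to be held by both remaining replicates it was 4 without replicate 1, 4 without replicate 2 and 5 without replicate 3, against 20.6%, 21.1% and 21.4%. The strongest was at tna, whose product interacts genetically with the SWI/SNF complex, at rank 68 (71, 86 and 50 in replicates 1, 2 and 3), 45 bp downstream of a start. It was followed by nej, the gene of the acetyltransferase CBP, at rank 1099 (1041, 1417 and 951), with the summit 654 bp upstream and nearer to lncRNA:CR42657. The Mediator gene skd was at rank 2951 (3661, 3888 and 2436). Of the weaker peaks, z, the Zeste gene, was at rank 4446 (7484, 4728 and 4197), and psq, the gene of a GAGA-binding protein, at 4517 (4799, 4825 and 16629). The SWI/SNF subunit gene Bap60 was at 4985 (4636, 8009 and 4385), with the summit nearer to a start of CG12096. Each of z, psq and Bap60 thus ranked outside the 5464 strongest peaks in 1 replicate. The remaining gene, lolal, at rank 5281 and with no matching peak in replicate 3, falls outside the rule for naming and was picked with its value known. At the SWI/SNF genes Bap55, Bap111 and Bap170 and at the COMPASS gene ash2 no promoter peak was found.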

How the data were processed

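Peaks had been called on the dm6 build, per the deposited notes, for each of the 3 replicates and for all of them pooled, each set against a control, and an IDR-thresholded list was derived from those 4 lists. Which aligner and which peak caller were used is not given in the sources used here. Each peak has a signal value that the authors deposited, whose scale differs between lists, and it served only to rank the peaks of 1 list. The deposited −log10 q-value was not used, since 70.8% of the reproducible peaks share its maximum. The lists hold no read counts per library, so depth is unknown, and the SDs cover the spread between replicates. The 5464 reproducible peaks were the strongest of the pooled list. The dm3 lists were not used here.

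Genes, starts and untranslated regions came from Ensembl release 115 (BDGP6, the assembly of dm6), without transposon insertions. A summit in a replicate matched a reproducible summit within 200 bp, and starts 200 bp or less apart were merged into clusters. The calculations used Python 3.11.15 with pandas 2.3.3 and were checked on planted peaks. The members, the list of other genes and the motifs were chosen with earlier results of these data known. All members were named. Of the other genes, the 6 strongest and the first 4 without a peak in alphabetical order were named. No test was made, since there is 1 group, and shares over all genes stand beside the counts of members with a promoter peak. The alternatives were other distances, starts, flanks, windows and numbers of peaks, each replicate alone and each left out.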

Additional observations from a re-analysis of the deposited data

How the results depend on the processing

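No paired analysis was possible because there is 1 group. The count of members with a promoter peak stayed between 5 and 7 in all alternatives, against 16.4% to 34.2% of all genes, and against 44.8% of genes with at least as many starts as the median member. It was 6 without each replicate in turn, which kept only reproducible peaks held by both others. All 15 member summits were held by all 3 replicates, so this setting could not lower the count. The pooled list cut to its 5464 strongest peaks holds the same peaks as the reproducible list. That alternative could therefore not change a count either. With no flank, 4 members had a summit within the annotated span, since those of brm, mor and ash1 lie outside it. The number of summits in the spans plus 10 kb was 35 with the pooled list at 2 times as many peaks, 25 in replicate 1 alone and 24 in replicate 3 alone. GAGAG occurred at 12 of the 15 member summits in windows of 250 bp, against 64.8% of all reproducible summits. Within 100 bp it occurred at 0 of the 8 promoter summits of the members, against 31.4% of all reproducible summits. With only 8 promoter summits, this 0 is a description only. Of the other genes, 2 had a promoter peak among the strongest 2732 peaks of the list, against 16.4% of all genes, and 4 to 5 when a replicate was left out, against 20.6% to 21.4%. No share over all genes was computed for the counts without a flank and of summits in the spans. The strongest Trl promoter peak within 2000 bp was that of rank 124. The cause of these changes was not tested, except where the window or list was larger or smaller by construction.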

Other observations

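Some summits in the windows of ash1 and trr lay at the starts of neighbouring genes. In the window of ash1 all 3 replicates and the pooled list had a summit at CG9330 (ranks 6939, 10727, 7467 and 7863) and at Shal, a potassium channel gene (12325, 7553, 7452 and 6597), all outside the 5464 strongest peaks. In the window of trr, replicates 1 and 3 had summits 16 and 14 bp upstream of the start of CG14817, at ranks 2834 and 3482, and at CG14818, at ranks 6599 and 4442, while replicate 2 and the pooled list had none. Both also had a summit at arm, the gene of beta-catenin, at ranks 8070 and 7304.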
